A study of Mus musculus with 12 samples.

Results

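The 10 genes described are acute-phase genes and calgranulins, followed across diet and low-dose penicillin in mouse liver. They are the serum amyloid A genes Saa1, Saa2, Saa3 and Saa4, the lipocalin Lcn2, the orosomucoids Orm1 and Orm2, haptoglobin Hp, and the calgranulins S100a8 and S100a9. They were taken by name, through the probe sets that the platform annotation gives to 1 gene symbol each. These are 10 of 18193 named genes and hold 12 of the 45101 probe sets on the array. Each gene was read from its probe set with the highest mean over the 12 arrays, and the second probe sets of Saa1 and Saa4 served as a check. All 10 genes were among the 13788 tested, those with a log2 value above 4.999 on at least 3 arrays, and S100a8 was the one member that lay under that value anywhere, on 2 arrays.

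Livers came from 12 male C57BL6J mice aged 30 weeks, and each liver was measured on 1 Affymetrix 3′ expression array. The 4 groups of 3 mice were penicillin chow, control chow, penicillin high-fat and control high-fat. Penicillin mice drank water with penicillin at 6.7 mg/L and controls drank water without antibiotic. Chow held 13.5% of its energy as fat, and the high-fat groups were moved at 17 weeks of age from chow to a diet with 45%. The labels do not state when penicillin was started, nor the cages and litters of the mice. Values are RMA log2 expression, so a difference of 1 is a doubling of signal, and a level is compared between livers for 1 probe set, never between probe sets.

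When cytokines of the interleukin-6 and interleukin-1 families reach hepatocytes, these cells switch on a set of secreted plasma proteins, the acute-phase proteins, through STAT3, NF-kappaB and C/EBP transcription factors. Serum amyloid A proteins travel on high-density lipoprotein, lipocalin 2 binds the siderophores with which bacteria collect iron, orosomucoids are plasma carriers of lipophilic compounds, and haptoglobin captures free haemoglobin. S100A8 and S100A9 pair into calprotectin, a calcium- and zinc-binding protein that is abundant in neutrophils and is also induced in other cells during inflammation. In whole liver, a change in the number of cells of one type and a change in RNA per cell cannot be told apart.

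The family members lie side by side in the genome. In the GRCm38.p6 gene table, chromosome 7 runs Saa3, the long noncoding RNA gene Gm31882, Saa4, the pseudogene Saa-ps, Saa1 and Saa2. On chromosome 4 the order is Orm1, the pseudogene Gm11212, Orm3 and Orm2, and on chromosome 3 S100a8 is next to S100a9. Promoter sequences of 8 of the 10 genes were found in RefSeq's table for that build. Each covers 250 bases before the gene's start and 50 after it, 300 bases in all.

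Of these 8 promoters, 7 held the C/EBP pattern TTGCNNAA on one strand or the other, all but that of S100a8. The pattern was present in 10.8% of 32851 promoters in the table. The STAT3 pattern TTCNNNGAA was in 0 of the 8 windows, against 8.30% of all promoters, and the kappa-B consensus was in 0 of the 8, against 8.46%. A match is a run of letters and was not tested for binding. The promoters of the 4 genes whose penicillin and control livers lay farthest apart on the high-fat diet without overlapping are printed from 5′ to 3′ along the gene's strand, in lower case, with the TTGCNNAA match of either strand in capitals. They are Saa1 (chr7:46742931-46743230, minus strand), Saa2 (chr7:46751583-46751882, plus strand), Lcn2 (chr2:32387690-32387989, minus strand) and Orm2 (chr4:63362199-63362498, plus strand).
Saa1: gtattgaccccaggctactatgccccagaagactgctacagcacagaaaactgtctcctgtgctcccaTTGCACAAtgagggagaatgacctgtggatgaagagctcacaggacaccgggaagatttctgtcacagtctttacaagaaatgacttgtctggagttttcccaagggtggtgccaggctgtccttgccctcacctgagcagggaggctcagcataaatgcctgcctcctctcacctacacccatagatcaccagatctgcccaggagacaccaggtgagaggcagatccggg
Saa2: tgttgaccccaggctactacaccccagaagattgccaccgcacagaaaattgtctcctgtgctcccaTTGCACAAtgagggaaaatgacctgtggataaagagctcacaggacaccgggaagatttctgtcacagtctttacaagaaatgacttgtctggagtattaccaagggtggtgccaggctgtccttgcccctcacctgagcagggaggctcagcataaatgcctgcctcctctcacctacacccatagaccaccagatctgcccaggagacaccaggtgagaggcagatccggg
Lcn2: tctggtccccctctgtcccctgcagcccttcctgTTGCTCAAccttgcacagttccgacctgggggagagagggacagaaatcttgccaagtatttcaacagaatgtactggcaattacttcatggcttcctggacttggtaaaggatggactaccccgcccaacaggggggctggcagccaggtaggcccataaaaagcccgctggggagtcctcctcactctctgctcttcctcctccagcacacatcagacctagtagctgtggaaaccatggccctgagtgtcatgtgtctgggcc
Orm2: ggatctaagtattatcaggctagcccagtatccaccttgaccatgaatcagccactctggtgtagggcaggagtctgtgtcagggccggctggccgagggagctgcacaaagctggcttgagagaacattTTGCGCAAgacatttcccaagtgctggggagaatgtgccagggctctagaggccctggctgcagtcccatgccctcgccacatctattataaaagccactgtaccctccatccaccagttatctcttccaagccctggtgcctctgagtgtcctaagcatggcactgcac
The Saa1 and Saa2 promoters face away from each other and were 95.35% identical over 301 aligned positions, with 12 mismatches. Their shared match, TTGCACAA, lay 182 bases before the start of Saa1 and 183 before that of Saa2. The Lcn2 match, TTGCTCAA, lay 216 bases before its start, and the Orm2 match, TTGCGCAA, 120 bases before. Likeness extends to the transcripts: the second Saa1 probe set carries a Saa2 transcript in the annotation, so signal of Saa1 and Saa2 may be shared between probe sets and their separate levels are uncertain.

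One liver stood apart before any comparison. Penicillin chow 1 had the highest value of the 12 arrays for 9 of the 10 genes, all but Saa3, while 12.5% of the 13788 tested genes were highest there. The 10 genes were chosen with earlier results of these data known, so this count describes the liver and is not a test. In penicillin chow 2 and 3 each of the 10 genes lay under the mean of their group, which penicillin chow 1 raises, so the 3 mice of that group did not share a pattern. Hepatocyte markers, which define the labelled tissue, averaged 13.70 to 13.89 in every liver. Correlations between arrays of the same group were 0.991 to 0.996 over all 45101 probe sets. A second difference was in the 18S control signal, which was 11.50 to 11.56 on 3 arrays, penicillin high-fat 2 and penicillin chow 2 and 3, and at least 12.65 on the other 9 arrays. Differences below come from limma on all 12 arrays, as the difference of group means with the standard error of the fit, and p-values are adjusted by Benjamini-Hochberg over the 13788 genes. Results that rest on penicillin chow 1 are also given without it.

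**Figure D1:**
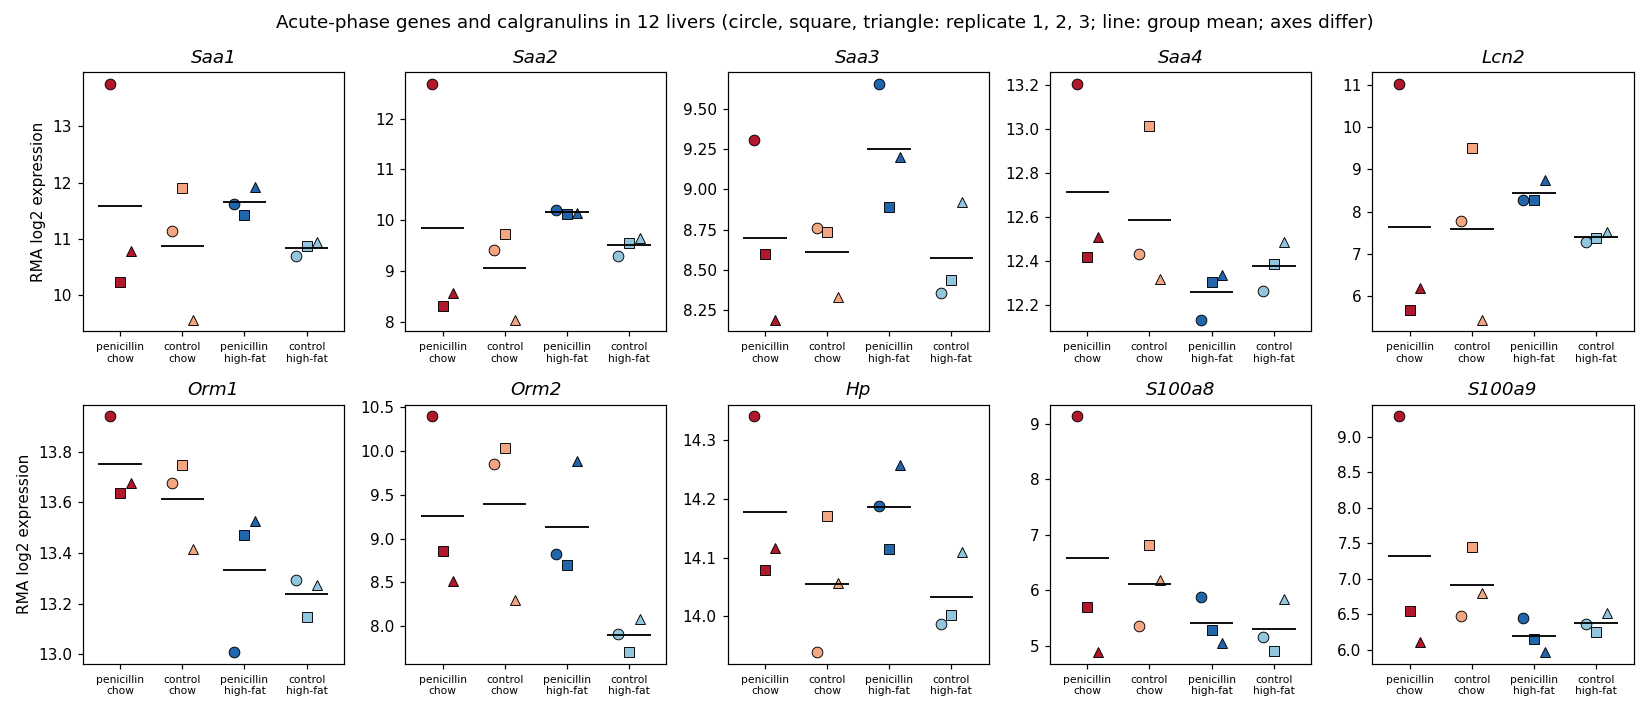
RMA log2 expression (vertical axis, a different range in each panel) of the 10 genes in the 12 livers, with penicillin chow, control chow, penicillin high-fat and control high-fat from left to right; symbols mark replicates 1 to 3 and lines the group means of 3 livers. Penicillin chow 1 is the topmost point in 9 panels, and for Saa1, Saa2, Lcn2 and Orm2 the 3 penicillin high-fat livers lie above the 3 control high-fat livers.

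Saa1 and Saa2 encode the acute-phase serum amyloid A proteins of the liver. Saa1 (probe set 1450788_at) had values of 13.76, 10.23 and 10.78 in penicillin chow livers 1 to 3, against 11.14, 11.89 and 9.56 in control chow livers. After high-fat feeding it had 11.62, 11.42 and 11.91 with penicillin, against 10.70, 10.87 and 10.95 in controls. The chow groups overlapped and spanned 4.20 log2 units, whereas on the high-fat diet each group was narrow and all 3 penicillin livers were above all 3 controls. Saa2 (1449326_x_at) had values of 12.69, 8.31 and 8.57 in penicillin chow livers, against 9.42, 9.74 and 8.04 in control chow livers. In the high-fat groups it had 10.20, 10.13 and 10.14 with penicillin, against 9.30, 9.56 and 9.66 in controls. The same order was seen as for Saa1, with penicillin chow 1 far above the rest and penicillin chow 2 and 3 under control chow 1 and 2.

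Saa3 encodes the serum amyloid A that mice also make outside the liver, in macrophages and fat. Its probe set 1450826_a_at had values of 9.30, 8.60 and 8.19 in penicillin chow livers, against 8.76, 8.73 and 8.33 in control chow livers. Among high-fat livers it had 9.66, 8.89 and 9.20 with penicillin, against 8.35, 8.44 and 8.92 in controls. Here penicillin high-fat 1 was the highest of all 12 livers, and one control, at 8.92, lay just above penicillin high-fat 2, at 8.89, so the high-fat groups overlapped. Saa4 encodes the constitutive serum amyloid A, which responds little in inflammation. Its probe set 1419318_at had 13.21, 12.42 and 12.51 in penicillin chow livers, against 12.43, 13.01 and 12.32 in control chow livers. On the high-fat diet the values were 12.14, 12.30 and 12.34 with penicillin, against 12.26, 12.39 and 12.49 in controls. Apart from penicillin chow 1 and control chow 2, the Saa4 values of all livers lay between 12.14 and 12.51.

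Lcn2 (1427747_a_at) varied most of the 10. It had values of 11.03, 5.69 and 6.21 in penicillin chow livers, against 7.78, 9.52 and 5.46 in control chow livers. After high-fat feeding it had 8.27, 8.28 and 8.76 with penicillin, against 7.29, 7.39 and 7.53 in controls. Thus chow livers of both treatments spanned very low to very high signal, while the high-fat livers formed 2 tight groups that did not overlap.

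Orm1 and Orm2 encode alpha-1-acid glycoproteins. Orm1 (1451054_at) had values of 13.94, 13.64 and 13.68 in penicillin chow livers, against 13.67, 13.75 and 13.41 in control chow livers. In the high-fat groups it had 13.01, 13.47 and 13.53 with penicillin, against 13.29, 13.15 and 13.27 in controls. High-fat livers were lower than chow livers of the same treatment without overlap, and penicillin high-fat 1 was the lowest of the 12. Orm2 (1420438_at) had values of 10.39, 8.86 and 8.51 in penicillin chow livers, against 9.85, 10.04 and 8.30 in control chow livers. Among high-fat livers it had 8.82, 8.69 and 9.88 with penicillin, against 7.91, 7.70 and 8.08 in controls. The 3 control high-fat livers were the lowest of all 12. Hp (1448881_at) had values of 14.34, 14.08 and 14.12 in penicillin chow livers, against 13.94, 14.17 and 14.06 in control chow livers. On the high-fat diet it had 14.19, 14.11 and 14.26 with penicillin, against 13.99, 14.002 and 14.11 in controls. Hp was nearly flat, and its whole range was 0.40 log2 units.

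The calgranulins had like profiles. S100a8 (1419394_s_at) had values of 9.14, 5.70 and 4.88 in penicillin chow livers, against 5.35, 6.82 and 6.19 in control chow livers. After high-fat feeding it had 5.88, 5.29 and 5.05 with penicillin, against 5.16, 4.91 and 5.85 in controls. Most of these values lie near the dim end of the array, where a change is compressed, and penicillin chow 1 was the one liver with a clearly bright signal. S100a9 (1448756_at) had values of 9.29, 6.55 and 6.11 in penicillin chow livers, against 6.47, 7.45 and 6.80 in control chow livers. In the high-fat groups it had 6.44, 6.15 and 5.96 with penicillin, against 6.36, 6.24 and 6.52 in controls. Control chow 2 was second to penicillin chow 1 for both genes, and the high-fat groups overlapped for both.

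**Figure D2:**
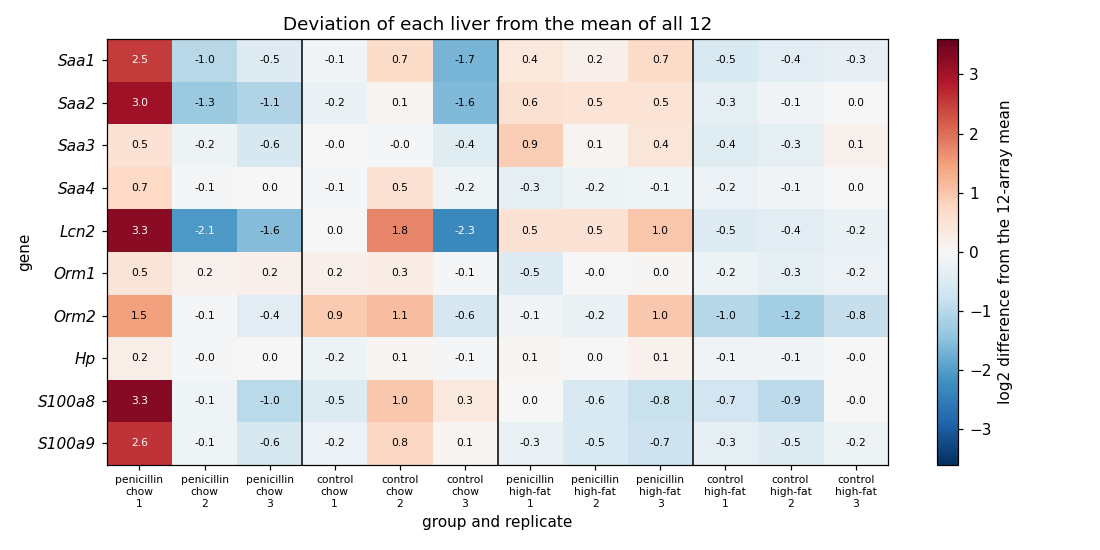
Difference of each liver (columns, by group and replicate) from the mean of all 12 livers for each gene (rows), in log2 units shown by colour and number. Penicillin chow 1 is positive in all 10 rows and stands out most for Lcn2 and S100a8, while control chow 3 and penicillin chow 2 are the most negative for Lcn2.

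Set against the mean of the other 11 livers, penicillin chow 1 was higher by 3.56 log2 units for Lcn2, an 11.8-fold difference in signal. S100a9 was higher there by 2.83 (7.10-fold). S100a8 was higher by 3.58, for which no fold is given, since 2 of the other 11 livers lay under 4.999 and dim signal is compressed. Saa2 was higher by 3.32 (10.01-fold) and Saa1 by 2.76 (6.75-fold), and Orm2 by 1.61 (3.05-fold). The remaining members differed less, by 0.79 for Saa4, 0.57 for Saa3, 0.50 for Orm1 and 0.25 for Hp. These are values of 1 mouse, for which no test was made.

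Other hepatic acute-phase genes were high in the same liver. Of 22 tested genes on that list, 15 (68.2%) had their highest value of the 12 livers in penicillin chow 1 and 0 had their lowest. The metallothionein Mt2, which binds zinc, was at 14.004 there and at most 10.29 elsewhere. The protease inhibitor Serpina3n was at 12.11, against at most 10.79, and the metalloreductase Steap4 at 12.84, against at most 11.45. Orm3, which lies between Orm1 and Orm2, was at 7.06 in penicillin chow 1, under control chow 2, at 7.68, and control chow 1, at 7.33, and above the other 9 livers. Among 22 tested cytokine and transcription factor genes, 13 (59.1%) were highest in penicillin chow 1 and 1 was lowest. The lowest was Il1rap, at 11.88 against at least 11.98 elsewhere. Stat3 was at 11.04 there and at most 10.32 elsewhere, the interleukin-1 receptor Il1r1 at 9.91 against at most 8.88, and the kappa-B cofactor Bcl3 at 9.23 against at most 8.37. Cebpd stood at 8.80, against at most 8.77, and Il6 itself was dim on every array, between 2.97 and 3.30. Of 10 negative acute-phase genes, plasma proteins made less in inflammation, 2 were highest and 2 lowest in that liver. Of all tested genes, 12.5% were highest and 16% lowest there. The lists too were chosen with earlier results of these data known, so these shares are not a test.

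**Figure D3:**
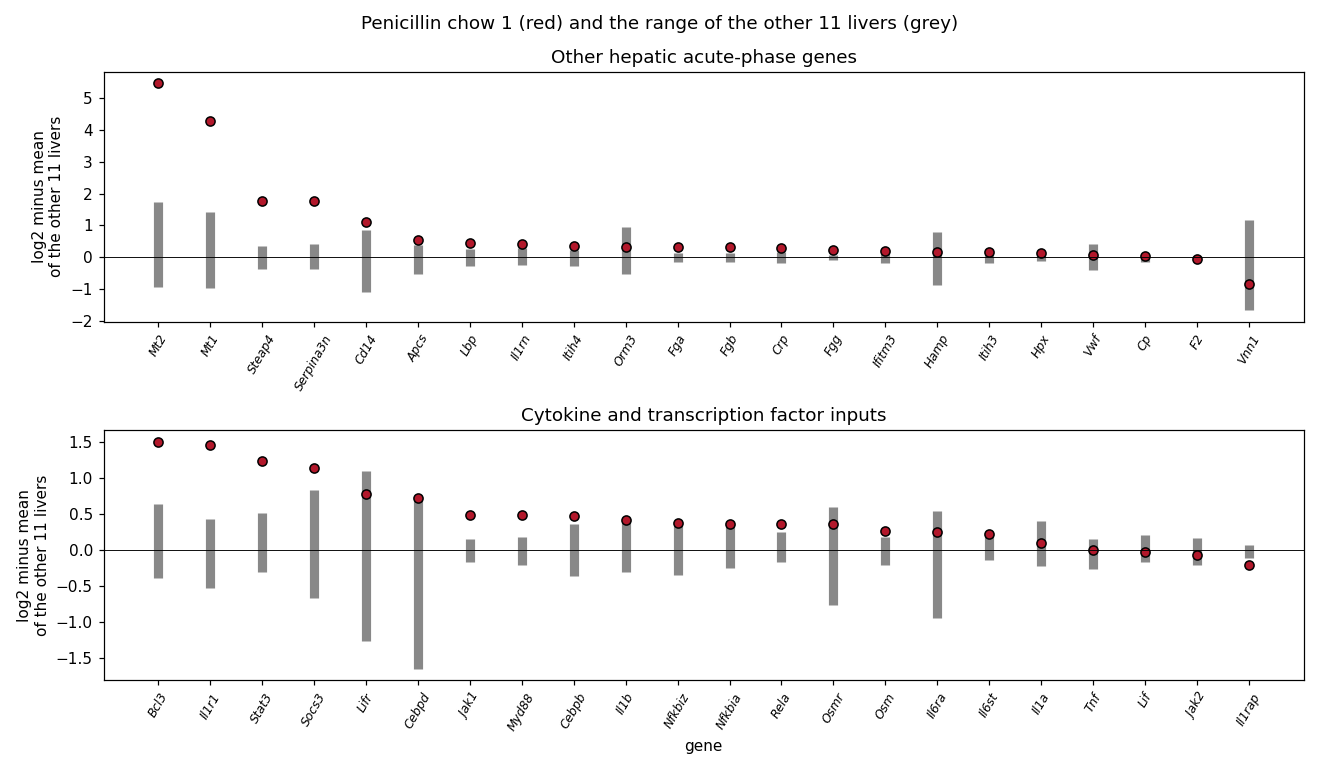
Log2 expression minus the mean of the other 11 livers (vertical axes) for 22 other hepatic acute-phase genes (top) and 22 cytokine and transcription factor genes (bottom); red points are penicillin chow 1 and grey bars the range of the other 11 livers. The red point is above the grey bar for 15 genes in the top panel and 13 in the bottom one.

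Markers of neutrophils, the cells richest in S100a8 and S100a9, were mostly at the dim end. Of 16 markers 12 were measured and 7 tested, and 2 of the 7 were highest in penicillin chow 1. Of the others, Csf3r and Cxcr2 were highest in control chow 3, at 7.33 and 5.39, against 7.17 and 5.28 in penicillin chow 1. Ngp was highest in penicillin chow 2, at 5.61, against 5.20 in penicillin chow 1. Mmp9 was highest in control high-fat 1, at 5.85, and Elane in control high-fat 3, at 5.195. The proteinase gene Prtn3 was at 7.96 in penicillin chow 1 and at 7.73 in control chow 2, and between 5.23 and 5.83 in the other 10 livers. Camp, which encodes a granule peptide, was between 4.38 and 4.8002 on every array, and the elastase gene Elane between 4.96 and 5.195. The collagenase gene Mmp8, under the filter, was at 5.32 in penicillin chow 1 and at most 4.83 elsewhere, and the formyl peptide receptor gene Fpr2 at 7.04, against at most 6.91. The mean of the measured markers was 5.19 to 5.62 in penicillin chow livers and 5.28 to 5.47 in control chow livers, and penicillin chow 1, at 5.62, was the highest of the 12. Among high-fat livers it was 5.16 to 5.25 with penicillin and 5.21 to 5.31 in controls. Prtn3 is among the genes averaged, and no mean without Prtn3 was made. The part of neutrophils in the calgranulin values was not tested.

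On the high-fat diet, penicillin livers had more signal than control livers for 8 of the 10 genes, but 0 of the 10 passed limma's test on all 12 arrays. Over all genes 0.341% passed in this comparison. Saa3 and Orm2 were the 2 of 10 with an unadjusted p under 0.05, against 10.1% of all genes. For 5 genes (Saa1, Saa2, Lcn2, Orm2 and Hp) all 3 penicillin livers were above all 3 controls, while 9.5% of all genes had that pattern. For Hp the gap between the lowest penicillin liver and the highest control was 0.0041 log2 units, and for the other 4 it was 0.47 to 0.75. The median difference of the 10 genes was 0.40, against -0.0005 for all genes.

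Among the serum amyloid A genes, Saa1 averaged 11.65 ± 0.25 in penicillin high-fat livers and 10.84 ± 0.13 in control high-fat livers (SD, n = 3 each). Its difference of 0.81 ± 0.77 (1.76-fold) had an adjusted p of 0.785. Saa2 averaged 10.16 ± 0.04 with penicillin and 9.50 ± 0.19 in controls, a difference of 0.65 ± 0.89 (adjusted p = 0.865). The standard error of the fit was several times the spread of these 6 livers, because it pools the wide chow groups. Saa3 averaged 9.25 ± 0.39 with penicillin and 8.57 ± 0.31 in controls, a difference of 0.68 ± 0.27 (adjusted p = 0.415). Saa4 averaged 12.26 ± 0.11 with penicillin and 12.38 ± 0.11 in controls (-0.12 ± 0.21, adjusted p = 0.902). The second probe sets gave 0.70 for Saa1 and -0.14 for Saa4.

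Of the ligand-binding proteins, Lcn2 averaged 8.44 ± 0.28 in penicillin high-fat livers and 7.4002 ± 0.12 in controls, a difference of 1.03 ± 1.22 (2.05-fold, adjusted p = 0.835). Orm2 averaged 9.13 ± 0.65 with penicillin and 7.90 ± 0.19 in controls, a difference of 1.24 ± 0.52 (2.35-fold, adjusted p = 0.449), the widest of the 10. Orm1, from the same cluster, averaged 13.33 ± 0.28 with penicillin and 13.24 ± 0.08 in controls (0.10 ± 0.14, adjusted p = 0.873). For Hp the difference was 0.15 ± 0.09 (adjusted p = 0.628). The calgranulins overlapped, with 0.10 ± 0.83 for S100a8 (adjusted p = 0.983) and -0.19 ± 0.62 for S100a9 (adjusted p = 0.951).

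A fit on the 6 high-fat arrays alone kept each difference and changed its error. There Lcn2 passed, at 1.03 ± 0.14 (limma, adjusted p = 0.0478), the 1 member of 10 that did, where 0.268% of all genes passed. Saa2, at 0.65 ± 0.10, had an adjusted p of 0.0756, and Saa1, at 0.81 ± 0.13, one of 0.0856. Orm2 had an adjusted p of 0.194. Leaving out penicillin chow 1 from the fit of all arrays gave 0 called members, where 0.689% of all genes passed, with an adjusted p of 0.219 for Saa3 and 0.253 for Orm2.

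**Figure D4:**
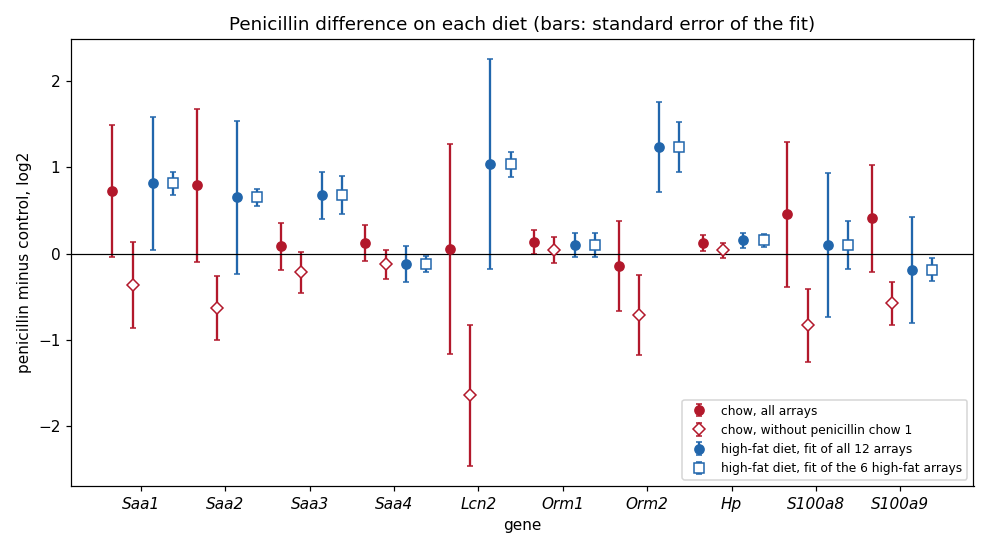
Penicillin minus control, in log2 units, for each gene on chow (red) and on the high-fat diet (blue); bars are the standard error of the fit, open diamonds leave out penicillin chow 1 and open squares use the 6 high-fat arrays alone. On the high-fat diet Saa1, Saa2, Saa3, Lcn2 and Orm2 lie between 0.65 and 1.24, and on chow 7 genes change sign when penicillin chow 1 is left out.

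Other genes of the pathway were read in the same comparison, against the 0.341% of all genes that passed. Of 22 cytokine and transcription factor genes, 0 were higher and 1 was lower in penicillin high-fat livers: Lifr, the receptor of leukaemia inhibitory factor, fell by 1.04 on the log2 scale (SE 0.12, adjusted p = 0.00272). Of 22 other hepatic acute-phase genes 0 passed in either direction (1 higher and 1 lower at an unadjusted p under 0.05), and their median difference was -0.08. Of 10 negative acute-phase genes, Apom, an apolipoprotein of high-density lipoprotein, fell by 0.48 (adjusted p = 0.0320) and the other 9 did not pass. At an unadjusted p under 0.05, 4 of these 10 were lower and 0 higher, against 10.1% of all genes in either direction. Among 11 tested receptors and partners of the members, the scavenger receptor Cd36, which binds serum amyloid A among many ligands, rose by 1.24 (adjusted p = 0.000551) and none fell. Markers of macrophages, which can make Saa3, had 0 of 14 past the test, adjusted or not, and their mean was 8.71 to 9.26 with penicillin and 9.14 to 9.24 in controls. Their part in the Saa3 difference was not tested.

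On chow, penicillin and control livers overlapped for all 10 genes and 0 passed limma's test, where 0.00725% of all genes passed. Full separation was seen for 4.79% of all genes with penicillin above control and 7.04% with it below. At an unadjusted p under 0.05 the count was also 0 of the 10, against 7.62% of all genes. The means differed by 0.72 ± 0.77 for Saa1 (adjusted p = 0.871) and by 0.79 ± 0.89 for Saa2 (adjusted p = 0.878). Lcn2 averaged 7.64 ± 2.94 in penicillin chow livers and 7.59 ± 2.04 in control chow livers, a difference of 0.06 ± 1.22 (adjusted p = 0.996). S100a8 differed by 0.45 ± 0.83 and S100a9 by 0.41 ± 0.62. These differences turned with 1 liver. With all arrays 9 of the 10 were positive, and without penicillin chow 1 only 2 were, Orm1 and Hp. Lcn2 then stood at -1.64 ± 0.82, S100a8 at -0.83 ± 0.42, Saa2 at -0.63 ± 0.37 and Saa1 at -0.36 ± 0.49, with 0 of the 10 called. Leaving out the 3 arrays of low 18S signal instead keeps penicillin chow 1 as the whole penicillin chow group, assumed to vary like the others, and 3 of the 10 were then called higher (Saa2, S100a8 and S100a9), where 1.82% of all genes passed.

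High-fat feeding was compared with chow within each treatment. In control mice 0 of the 10 genes passed limma's test, where 0.899% of all genes did. Orm1 and Orm2 had an unadjusted p under 0.05 (15.1% of all genes), and these 2 were lower in all 3 high-fat livers, a pattern of 10.4% of all genes. Orm2 averaged 7.90 ± 0.19 in control high-fat livers and 9.40 ± 0.95 in control chow livers, a difference of -1.499 ± 0.52 (0.354-fold, adjusted p = 0.201). Orm1 averaged 13.24 ± 0.08 in control high-fat livers and 13.61 ± 0.17 in control chow livers, a difference of -0.37 ± 0.14 (adjusted p = 0.237). Of the amyloid genes, Saa2 differed by 0.44 ± 0.89 (1.36-fold, adjusted p = 0.874), Saa1 by -0.03 ± 0.77, Saa3 by -0.04 ± 0.27 and Saa4 by -0.21 ± 0.21. S100a8 differed by -0.81 ± 0.83 (adjusted p = 0.703) and S100a9 by -0.53 ± 0.62 (adjusted p = 0.745).

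In penicillin mice 0 of the 10 passed limma's test, where 8.32% of all genes did. Saa4 and Orm1 had an unadjusted p under 0.05 (24.5% of all genes), and these 2 were lower in all 3 high-fat livers, a pattern of 12.3% of all genes. Orm1 averaged 13.33 ± 0.28 in penicillin high-fat livers and 13.75 ± 0.16 in penicillin chow livers, a difference of -0.42 ± 0.14 (adjusted p = 0.0918). Saa4 averaged 12.26 ± 0.11 in penicillin high-fat livers and 12.71 ± 0.43 in penicillin chow livers, a difference of -0.45 ± 0.21 (adjusted p = 0.204). Without penicillin chow 1 neither had an unadjusted p under 0.05: Orm1 differed by -0.32 ± 0.15 (unadjusted p = 0.0530, adjusted p = 0.224) and Saa4 by -0.21 ± 0.17 (unadjusted p = 0.254, adjusted p = 0.515). The widest differences of the 10 were those of S100a8, at -1.17 ± 0.83 (adjusted p = 0.425), and S100a9, at -1.13 ± 0.62 (adjusted p = 0.288). Without penicillin chow 1 they stood at 0.12 ± 0.42 for S100a8 and -0.14 ± 0.25 for S100a9. Saa2 differed by 0.30 ± 0.89 and Lcn2 by 0.79 ± 1.22. Without penicillin chow 1, Saa2 averaged 8.44 in the chow group, its difference was 1.72 ± 0.37 and it passed (adjusted p = 0.0176), as 1 of the 10, where 7.94% of all genes passed. Lcn2 then differed by 2.49 ± 0.82 (adjusted p = 0.0922), Saa3 by 0.86 ± 0.24 (adjusted p = 0.0526) and Saa1 by 1.15 ± 0.49 (adjusted p = 0.197). The gap between the diet differences of penicillin and control mice is the interaction, in which Saa2 did not pass.

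Averaged over both treatments, Orm1 fell by 0.40 on the log2 scale with the high-fat diet (SE 0.10, 0.760-fold, adjusted p = 0.0217). It was the 1 of 10 members called, where 14.5% of all genes were called and 4.85% were called lower. The call depended on single arrays. It was kept in 9 of 12 fits that each left out 1 array, and the adjusted p was 0.0512 without control chow 1, 0.0529 without control chow 2 and 0.0558 without control high-fat 2. Orm2 differed by -0.81 ± 0.37 (adjusted p = 0.165) and Saa4 by -0.33 ± 0.15 (adjusted p = 0.153). S100a9 differed by -0.83 ± 0.44 (adjusted p = 0.225) and S100a8 by -0.99 ± 0.59 (adjusted p = 0.287). Without penicillin chow 1 these stood at -0.53 ± 0.31 for Orm2, -0.21 ± 0.11 for Saa4, -0.34 ± 0.17 for S100a9 and -0.35 ± 0.28 for S100a8, and Orm1 was still called, at -0.35 ± 0.10 (adjusted p = 0.0388). In that fit Saa2 was called higher as well, at 1.08 ± 0.25 (adjusted p = 0.0152), and 15.1% of all genes passed.

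The other lists were read in the same average over treatments, against the 14.5% of all genes that passed. Of 22 other hepatic acute-phase genes, 1 rose and 1 fell: Vnn1, a pantetheinase that is also a target of the fatty acid receptor PPAR alpha, rose by 1.52 (adjusted p = 0.000710), and Hamp, the iron hormone hepcidin, fell by 0.56 (adjusted p = 0.0156). Of 22 cytokine and transcription factor genes, 1 rose and 3 fell. Osmr, the oncostatin M receptor, rose by 0.63 (adjusted p = 0.0186), and Lifr fell by 1.39 (adjusted p = 3.98e-06). Rela, a subunit of NF-kappaB, fell by 0.24 (adjusted p = 0.00818) and Bcl3 by 0.65 (adjusted p = 0.0449). Among 10 negative acute-phase genes, 1 rose and 2 fell. Serpina6, the corticosteroid-binding globulin, rose by 0.77 (adjusted p = 0.00179), while fetuin B, Fetub, fell by 0.33 (adjusted p = 0.00249) and Apom by 0.22 (adjusted p = 0.0269). Of 11 receptors and partners 2 rose and 0 fell, Cd36 by 1.204 (adjusted p = 7.85e-06) and the haem oxygenase Hmox1 by 0.73 (adjusted p = 0.0449). Of 7 other S100 genes tested, S100a16 rose by 0.23 (adjusted p = 0.0108) and none fell. Among 14 macrophage markers 11 rose and 0 fell, with a median difference of 0.68, against -0.01 for all genes.

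Averaged over both diets, 0 of the 10 genes passed limma's test for penicillin and 0 had an unadjusted p under 0.05, where 0.145% and 11.9% of all genes did. All 10 differences were positive with the 12 arrays and 6 were without penicillin chow 1, when S100a8 stood at -0.36 and S100a9 at -0.38. Hp had the smallest unadjusted p of the 10, with a difference of 0.14 ± 0.06 (adjusted p = 0.423). The interaction, which asks whether the penicillin difference depends on diet, gave 0 of 10 past limma's test and 0 with an unadjusted p under 0.05, where 0.0435% and 6.11% of all genes did. Orm2 had the largest estimate of the 10, at 1.38 ± 0.74 (adjusted p = 0.855), and Lcn2 stood at 0.98 ± 1.72 (adjusted p = 0.971). Without penicillin chow 1 all 10 estimates were positive, with 2.67 ± 1.09 for Lcn2 (adjusted p = 0.646), 1.95 ± 0.63 for Orm2 (adjusted p = 0.475) and 1.28 ± 0.50 for Saa2 (adjusted p = 0.602). These comparisons share their livers and do not count as separate evidence.

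Livers of the same group varied widely for several members. The SD of Lcn2 was 2.94 in penicillin chow and 2.04 in control chow livers, and 0.28 in penicillin high-fat and 0.12 in control high-fat livers (n = 3 each). The median SD of all tested genes was 0.12, 0.11, 0.11 and 0.10 in the same groups. Ranked by the SD within groups, pooled over the 12 arrays, Lcn2 was at percentile 99.99 of all genes, Saa2 at 99.97, S100a8 at 99.96, Saa1 at 99.9, S100a9 at 99.8 and Orm2 at 99.7. Without penicillin chow 1 these ranks were 99.96 for Lcn2, 98.9 for Saa2, 99.2 for S100a8, 99.5 for Saa1, 96.5 for S100a9 and 99.4 for Orm2. The SDs themselves fell, to 1.11 without that liver, against 1.80 with it, for Lcn2, to 0.496 against 1.31 for Saa2 and to 0.57 against 1.23 for S100a8. For Saa1 the SD was 0.67 without it and 1.13 with it, for S100a9 0.33 and 0.91, and for Orm2 0.63 and 0.77, where the median of all genes was 0.12 and 0.13. Saa3 was at percentile 97.1, Saa4 at 93.7, Orm1 at 80.1 and Hp, among the steadier genes, at 29.9. For Saa1, Saa2, Saa4, Lcn2, Orm2, Hp, S100a8 and S100a9 both chow groups had a larger SD than both high-fat groups. With the penicillin chow SD taken from livers 2 and 3 alone, this held for 5 of these 8, not for Saa4, Orm2 and Hp, and for Saa2 by little (0.187 against 0.185). No test of the SDs was made, and with 3 livers a group each is itself uncertain.

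**Figure D5:**
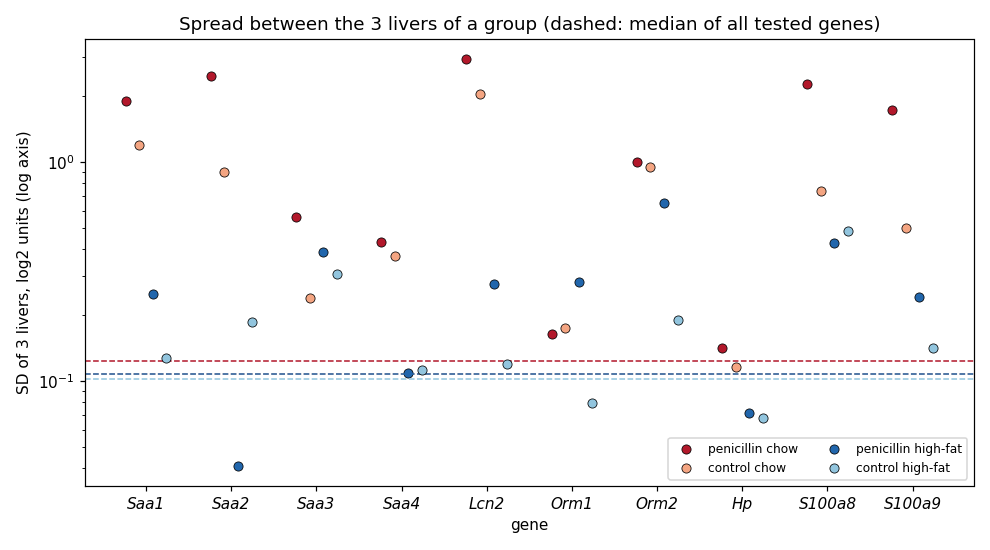
SD of the 3 livers of each group (vertical axis, log2 units on a log axis) for each gene, with dashed lines at the median SD of all tested genes in that group. Lcn2 reaches 2.94 in penicillin chow livers and 2.04 in control chow livers, and the high-fat groups of Saa1, Saa2 and Lcn2 lie between 0.04 and 0.28.

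Profiles were compared by the root mean square difference of gene-centred log2 values. A small value means a like pattern over livers only where the gene itself varies by more. Between members, S100a8 and S100a9 differed by 0.33 over 12 livers and 0.26 over the 11 without penicillin chow 1. Saa1 and Saa2 differed by 0.35 and 0.33, and Saa1 and Lcn2 by 0.63 and 0.61. Saa4 and Orm1 differed by 0.20 and 0.19, where the root mean square of Saa4 itself was 0.30 and 0.21. The nearly flat Hp differed from Saa4 by 0.26 and 0.22. Over 11 livers the value of 0.19 for Saa4 and Orm1 is close to the 0.21 of Saa4 itself. It cannot tell how far the 2 genes share a pattern, since Orm1 varies too. Among 1462 other genes with a range of at least 1 log2 unit, the nearest to Saa4 was Lrg1, which encodes a leucine-rich plasma glycoprotein, at 0.11 over 12 livers and 0.10 over 11. The nearest to S100a8 was Prtn3, at 0.62 over 12 livers, and over 11 livers it was the scavenger receptor gene Scara3, at 0.36, with Prtn3 no longer among the nearest 3. The nearest to Lcn2 over 12 livers was Nrg4, a growth factor of the epidermal growth factor family, at 0.95, and over 11 livers it was Cebpd, at 0.80. The root mean square of Lcn2 itself was 1.52 over 12 livers and 1.21 over 11. Cebpd encodes a C/EBP factor. Control chow 3, the lowest liver for Lcn2, had the lowest Cebpd, at 6.43. Control high-fat 1 had the highest Cebpd of the 11, at 8.77, with Lcn2 at 7.29. Control chow 2 had the highest Lcn2 of the 11, at 9.52, with Cebpd at 8.47. A part of Cebpd in the Lcn2 values was not tested.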

How the data were processed

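Liver RNA of 12 mice was measured on 12 arrays. The authors deposited log2 values of 45101 probe sets in 1 table. The submitters' processing notes name RMA and affy; their versions are not given there. RMA equalises the arrays' intensity distributions, so each difference is relative to the bulk of genes. Array medians were 5.52 to 5.59. Arrays give no read depth, and their number limits the precision.

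Gene names follow GEO's platform annotation, where 34945 probe sets had 1 symbol, 932 several and 9160 none, and 64 were controls. Each gene was represented by its probe set of highest mean, and 13788 of 18193 genes passed the filter (over log2 4.999, the 40th percentile of the table, on 3 arrays or more). Limma (version 3.58.1, R 4.3.3) fitted 4 group means to the 12 arrays, with 8 residual degrees of freedom, then eBayes, Benjamini-Hochberg over the 13788 genes and a threshold of 0.05. The median standard error between groups was 0.10. The labels call the replicates biological, so p-values reflect differences between mice. The script was tested on simulated data.

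The members and lists were chosen with earlier results of these data known. All 10 members are named. Of the other lists, up to 4 genes per contrast with the smallest p, and any that passed, could be named. Orm3, Mt2, Serpina3n, Steap4, Stat3, Il1r1, Il1rap, Bcl3, Cebpd, Il6, Prtn3, Camp, Elane, Mmp8, Fpr2, Csf3r, Cxcr2, Ngp and Mmp9 were chosen after their values were seen. Profile likeness took the 3 nearest genes for each member with a range of at least 1. Alternatives covered the filter, probe set choice, normalization, array weights, variance prior, arrays in the fit, a replicate block, thresholds and left-out arrays. Promoters come from RefSeq's table for GRCm38.p6.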

Additional observations from a re-analysis of the deposited data

How the results depend on the processing

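The settings that moved the count of called members were array weights, the arrays in the fit, the thresholds, left-out livers and the removal of the 3 arrays with low 18S signal. Of the alternative values of single members, 1530 kept their direction and side of the threshold; a value that changed sign but was uncalled in both fits and moved by less than its standard error is counted with these. The remaining 31 turned, 16 gained a call with no change of sign and 3 lost one; 1 of the 31, Saa2 for the diet in penicillin mice without the 3 arrays of low 18S signal, was also called. With 3 livers a group, the spread of a gene such as Lcn2 limits what can be detected. Its pooled SD was 1.80 and its standard error between 2 groups 1.22. No detection limit was computed, and dim signal limits S100a8.

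With array weights, Orm2 was called for high-fat diet in control mice (1 of 10), where 571 of 13788 genes were called. Saa3 was called for high-fat diet in penicillin mice (1 of 10), where 1628 of 13788 genes were called. Without weights, 124 and 1147 genes were called in these comparisons. For penicillin on chow, array weights turned Saa1 to -0.0901, Saa2 to -0.23, Saa3 to -0.21, Lcn2 to -1.26, S100a8 to -0.41 and S100a9 to -0.26. The fit of the 6 high-fat arrays alone called 1 member for penicillin, where 37 of 13788 genes were called. An adjusted p under 0.1 called 1 member for high-fat diet in penicillin mice, and asking for a 1.5-fold change left 0 for the diet averaged. The share of all genes was not counted at those thresholds.

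Leaving out 1 array in turn gave 0 to 2 called members for the diet averaged, 0 to 1 for the diet in penicillin mice and 0 for the other comparisons. Of 13788 genes, these fits called 1356 to 2077 for the diet averaged and 530 to 1114 for the diet in penicillin mice. In each of the other comparisons they called at most 303. The values that turned in such a fit had these ranges over the 12 fits. For penicillin on chow they were -0.36 to 1.40 for Saa1, -0.63 to 1.57 for Saa2, -0.21 to 0.34 for Saa3, -0.12 to 0.34 for Saa4, -1.64 to 1.03 for Lcn2, -0.83 to 1.30 for S100a8 and -0.58 to 1.01 for S100a9. For penicillin averaged they were -0.36 to 0.70 for S100a8 and -0.38 to 0.41 for S100a9. The diet in penicillin mice gave -0.50 to 0.45 for Orm2 and -2.01 to 0.12 for S100a8, and the interaction -0.91 to 1.28 for Saa2, -1.20 to 0.93 for S100a8 and -1.20 to 0.39 for S100a9. In these 14 cases the turned value is that without penicillin chow 1. The diet difference of Saa4 in control mice ranged from -0.34 to 0.00201, the last without control chow 2.

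Without the 3 arrays of low 18S signal, which leaves penicillin chow 1 alone in its group and assumes that it varies like the livers of the other groups, 3 members were called for penicillin on chow, 3 for penicillin averaged, 3 for the diet in penicillin mice and 4 for the diet averaged. Calls over all genes also rose in this fit for penicillin on chow and penicillin averaged. They fell for the diet in penicillin mice and the diet averaged. With 1 liver in the penicillin chow group, no conclusion about the members is drawn from these counts. Penicillin on chow turned to 1.00 for Orm2. The diet in penicillin mice turned to -1.99 for Saa1, -2.52 for Saa2, -2.51 for Lcn2 and -0.12 for Hp, and the interaction to -1.97 for Saa1 and -2.33 for Lcn2. The diet averaged turned to -1.01 for Saa1, -1.04 for Saa2 and -1.35 for Lcn2. In the fits of this paragraph and the last, fewer livers remain by construction, and other causes were not tested.

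Livers that share a replicate number did not deviate together: correlations of their deviations from the group means were -0.23 to 0.17, and the best match in another group had the same number in 12 of 36 cases. With the replicate number as a block, the called members were 0 in 6 comparisons and 1 for the diet averaged, as without it. Over all genes the block gave 35 calls for penicillin on high-fat diet, against 47 without it, and 70 for high-fat diet in control mice, against 124. It gave 1022 of 13788 for the diet in penicillin mice, against 1147, and 1720 for the diet averaged, against 1997. The remaining comparisons had at most 2.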
